A study of Mus musculus with 6 samples.

Results

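The mitochondrial chromosome (chrM) of the mouse carries 38 genes in the deposited table, and 32 of them had read counts in all 6 liver libraries. These 32 genes, taken by chromosome and by filled count cells alone, were both rRNA genes, 10 of the 13 protein-coding genes, 19 of the 22 tRNA genes and the miRNA gene mmu-mir-805. They stood among 19594 genes with counts in the whole table. The libraries came from liver of male mice on a C57BL6 strain background, aged 2 months, 3 wild type and 3 SHP -/-. SHP is the product of Nr0b2, a nuclear receptor that represses other transcription factors and limits bile acid synthesis. RNA was extracted with TRIzol and capped RNA was then captured with a cap-binding EIF4E variant of high affinity. Libraries were read from both ends for 36 cycles, with 3 samples to a lane. No source used here gives the lane of each sample, so effects of lane and of genotype cannot be told apart. How the SHP -/- allele was made, and whether mice were littermates, was not stated either, so the tests measure the spread between these samples. Nr0b2 itself had 104, 59 and 85 counts in wild type against 29, 36 and 77 in SHP -/-. Scaled to the library these were 17.7, 12.3 and 13.5 counts per 1000000 (CPM) in wild type and 6.62, 7.07 and 10.3 in SHP -/-. The gene was lower in SHP -/- by a log2 difference of -0.81 (limma voom adjusted p = 0.0443, over all genes), but its reads stayed well above 0 in every SHP -/- library. That call was lost for 5 of the 6 libraries left out in turn (adjusted p up to 0.124), with unscaled totals (0.0536) and with no filter on low counts (0.0647). Nr0b2 reads thus do not by themselves bear out a null label, and since the deleted part of the gene is not described, they do not test it.

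Mitochondrial DNA is transcribed from both strands into long precursors by the RNA polymerase Polrmt with the packaging factor Tfam. In many places tRNA genes stand between the rRNA and protein-coding genes, and excision of the tRNAs releases the neighbouring RNAs. The rRNAs build the mitochondrial ribosome, the mRNAs encode core subunits of the respiratory complexes and of ATP synthase, and the tRNAs serve their translation. In liver these complexes supply ATP for gluconeogenesis and urea synthesis. None of these RNAs carries the methylguanosine cap of nuclear mRNA, so every count described here is of RNA that came through a selection for capped RNA. Levels are therefore those of the selected RNA and not of total RNA.

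A few sequences show what kind of gene the counts belong to. All are printed 5′ to 3′ from GENCODE M21 transcripts (assembly GRCm38), matched to 37 of the 38 table entries by Ensembl identifier. The first is the start of mt-Rnr2, the large-subunit rRNA gene that gave most mitochondrial counts. Next is mt-Te, the tRNA gene for glutamate and the tRNA gene that passed the test for a change. Then follow mt-Tg and mt-Tr, the tRNA genes for glycine and arginine, which were listed at 0 in every SHP -/- library. In mt-Tr the capitals mark its longest run of a single base, 8 A at positions 14 to 21 counted from the 5′ end.
mt-Rnr2 (bases 1 to 120): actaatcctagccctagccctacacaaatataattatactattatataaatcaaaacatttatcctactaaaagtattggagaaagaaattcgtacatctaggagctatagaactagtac
mt-Te: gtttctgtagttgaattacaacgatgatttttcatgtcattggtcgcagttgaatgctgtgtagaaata
mt-Tg: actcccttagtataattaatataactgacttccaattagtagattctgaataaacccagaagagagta
mt-Tr: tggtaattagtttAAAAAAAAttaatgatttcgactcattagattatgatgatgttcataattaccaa

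The last pair shows how closely a nuclear copy can follow a mitochondrial gene. The first 120 bases of mt-Nd3, a complex I subunit gene, stand beside those of Gm28438, a pseudogene on chromosome 1. Over 345 aligned bases the pair differed once, by T3C, with the mitochondrial base first and positions counted from the first base. The capitals mark that base.
mt-Nd3 (bases 1 to 120): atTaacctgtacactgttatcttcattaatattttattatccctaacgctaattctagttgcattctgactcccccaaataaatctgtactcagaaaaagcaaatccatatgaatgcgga
Gm28438 (bases 1 to 120): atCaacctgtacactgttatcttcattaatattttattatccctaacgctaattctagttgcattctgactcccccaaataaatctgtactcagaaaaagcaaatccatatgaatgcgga

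Mitochondrial genes took a smaller part of the counts in SHP -/- liver. Of all counts in genes they held 10.3%, 10.2% and 10.2% in the wild-type libraries and 7.10%, 6.75% and 5.66% in the SHP -/- libraries. The groups did not overlap, with means of 10.2% ± 0.0617 and 6.50% ± 0.753 (SD, n = 3 each). The two-sided exact permutation test gave p = 0.1, the smallest value that 3 against 3 can give. Counting error was small beside this, with 95% Wilson intervals of at most 0.027 points to either side. Without mt-Rnr2 in either sum the share was 1.09% ± 0.181 in wild type and 0.685% ± 0.0711 in SHP -/- (SD, n = 3 each), again without overlap and with the same exact permutation p of 0.1. In bulk liver RNA, fewer cells of a type and less RNA per cell cannot be told apart. Nor can either be told apart from a difference between samples in how much uncapped RNA came through the capture.

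Among chrM counts alone the shares of the gene classes overlapped between the groups. The rRNA genes held 90.6%, 93.3% and 90.5% in wild type and 90.9%, 92.1% and 90.9% in SHP -/-. The 10 protein-coding genes held 9.29%, 6.65% and 9.37% in wild type and 9.06%, 7.82% and 9.02% in SHP -/-. Both sets of values interleaved, and the differences of -0.205 and 0.197 points were smaller than the SDs of 1.55 points within wild type. The tRNA genes held 0.0619%, 0.0791% and 0.0972% against 0.0730%, 0.108% and 0.0878%, also interleaved. Exact two-sided permutation tests gave p = 1 for the rRNA and protein-coding shares and p = 0.5 for the tRNA share, none adjusted over the 3 classes. The rRNA and protein-coding shares together make up nearly all chrM counts, so their tests are not independent of each other. Divided by gene length, the rRNA, protein-coding and tRNA genes held 86.5%, 11.6% and 1.70% of wild-type chrM levels and 86.3%, 11.6% and 1.93% of SHP -/- levels. With 3 libraries a group this test cannot reach a p under 0.1, so a share difference of any size would not pass 0.05.

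**Figure D1:**
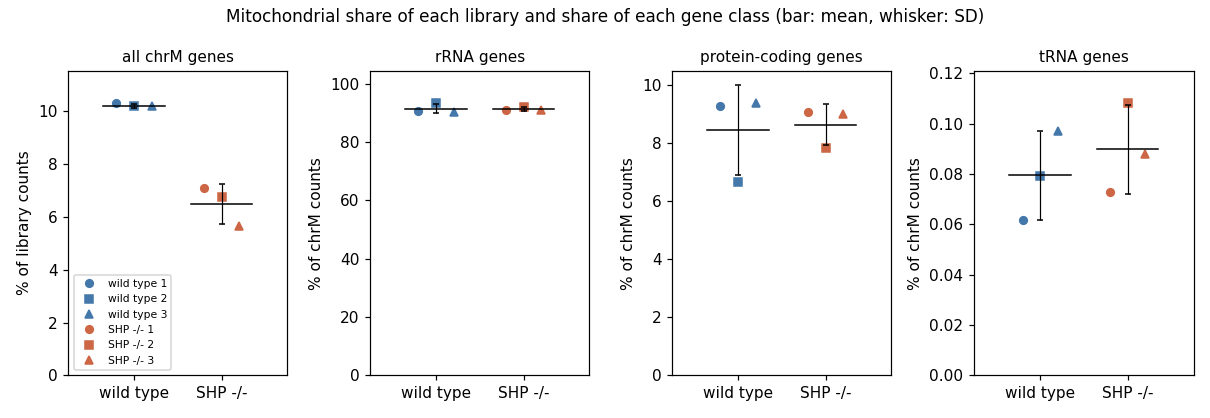
Share of counts in each library, with wild type in blue and SHP -/- in orange, a horizontal bar for the mean and whiskers for the SD (n = 3). The left panel gives chrM genes as a percentage of all counts in genes. There the SHP -/- libraries, with shares of 5.66% to 7.10%, all lie below the wild-type libraries. The other panels give each class as a percentage of chrM counts, where the groups interleave.

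The fit over all genes scaled each library to its whole count and compared groups by limma voom with Benjamini-Hochberg adjustment over 11794 genes. Of the 32 mitochondrial genes, 20 passed the filter on low counts and 12 did not. Of the 20 tested, 10 were lower in SHP -/-, 0 were higher and 10 did not pass the adjusted threshold of 0.05. The count of higher genes was also 0 at an unadjusted p under 0.05 and with limma-trend. Over all genes tested, 6.94% were lower and 7.58% were higher. The median log2 difference of the 20 was -0.64, against -0.01 over all genes tested. In 11 of the 20 every SHP -/- library lay below every wild-type library, as it did in 17.9% of all genes tested, and in 1, mt-Tp, every SHP -/- library lay above, as in 17.2% of all genes tested.

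The 10 calls were both rRNA genes, 6 of the 7 tested protein-coding genes, 1 of the 10 tested tRNA genes and mmu-mir-805. Left out in turn, 5 of the libraries gave counts of lower calls between 7 and 11. Without wild-type replicate 3 the count was 2, mt-Rnr2 and mt-Nd2, while all 10 log2 differences stayed below 0. In that fit 621 genes passed over the whole table, against 1713 with all libraries. The scaling also bears on direction in the table as a whole: with library sizes taken without chrM, 686 genes were higher and 1029 lower, against 894 and 819, and the mitochondrial count stayed at 10 lower.

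**Figure D2:**
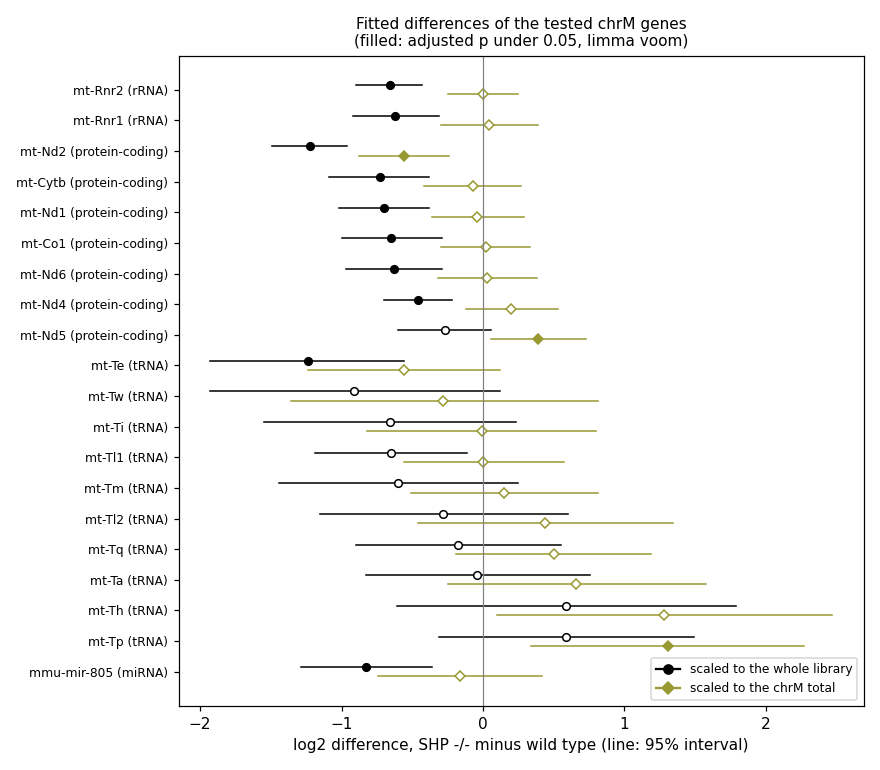
Fitted log2 differences, SHP -/- minus wild type, for the 20 tested genes, with 95% intervals; black circles are scaled to the whole library and olive diamonds to the chrM total, and filled symbols passed an adjusted p of 0.05. Relative to the library 18 of the 20 lie below 0, and relative to chrM only mt-Nd2 stands lower and mt-Nd5 and mt-Tp higher past the threshold. For the diamonds that threshold is lenient, since the adjustment ran over all genes tested and the scaling moved most of these higher.

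The rRNA genes were the most abundant class. mt-Rnr2 (mm9 chrM 1094 to 2675, plus strand) reached 57673, 61715 and 55936 CPM per kb (CPM, counts per 1000000 of the scaled library total, divided by the gene's length in kilobases) in wild type and 41431, 38848 and 31064 in SHP -/-. It fell by 0.66 on the log2 scale (SE 0.11, limma voom adjusted p = 0.00209), with no overlap between groups, and the call held with any single library left out. The small-subunit rRNA gene mt-Rnr1 (70 to 1024, plus strand) lies upstream with the valine tRNA gene between them. Its levels were 1019.5, 1213 and 1495 CPM per kb in wild type and 699.5, 947 and 773 in SHP -/-. It fell by 0.62 (SE 0.14, adjusted p = 0.0117 by limma voom), and the adjusted p was 0.0778 without wild-type replicate 3.

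Both ribosomal RNAs are needed in equal number in the ribosome, yet their counts were far apart. The ratio of mt-Rnr2 to mt-Rnr1 per unit length was 56.6, 50.9 and 37.4 in wild type and 59.2, 41.0 and 40.2 in SHP -/-. The groups interleaved, with p = 1 in a two-sided exact permutation test. mt-Rnr2 alone held 90.3% ± 1.64 of chrM counts in wild type and 90.1% ± 0.607 in SHP -/- (SD, n = 3 each). Any value given relative to the chrM total is for that reason close to a value relative to mt-Rnr2.

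**Figure D3:**
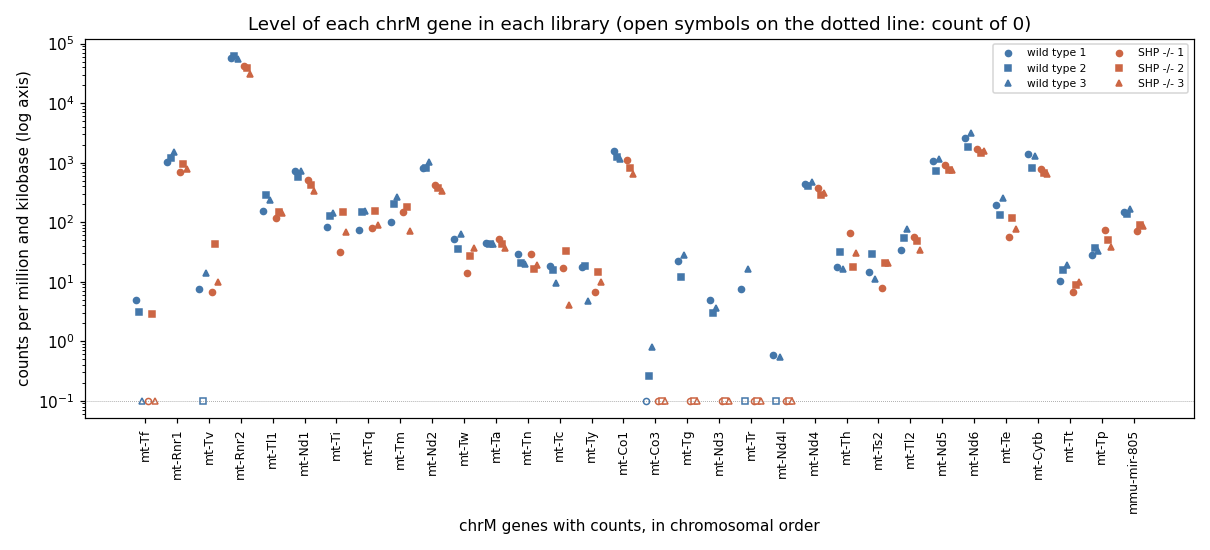
Level of each of the 32 genes in each library in CPM per kb on a log axis, in chromosomal order, with wild type in blue and SHP -/- in orange. mt-Rnr2 stands highest at 31064 to 61715, tRNA genes lie lowest among the genes with sizable counts, and 5 genes from mt-Co3 to mt-Nd4l are at 0 (open symbols, dotted line) in every SHP -/- library.

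Complex I, which passes electrons from NADH to ubiquinone, has its core membrane subunits encoded by the mt-Nd genes. mt-Nd2 (3914 to 4951, plus strand) was at 807, 812 and 1015 CPM per kb in wild type and 427, 375 and 329 in SHP -/-. It fell by 1.22 on the log2 scale (SE 0.12, limma voom adjusted p = 7.55e-05), a level of 0.429 of wild type. This call held with any single library left out, with adjusted p-values up to 0.00184. mt-Nd1 (2751 to 3707, plus strand) was at 718, 575 and 730.4 in wild type and 512, 424 and 328 in SHP -/-, all lower. It fell by 0.70 (SE 0.15, adjusted p = 0.00796 by limma voom), and the adjusted p was 0.0601 without wild-type replicate 3.

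mt-Nd4 (10167 to 11544, plus strand) gave 445, 407 and 466 CPM per kb in wild type and 369.5, 291 and 304 in SHP -/-. The groups did not overlap and the gene fell by 0.46 (SE 0.11, limma voom adjusted p = 0.0152). Its adjusted p rose to 0.0841 without wild-type replicate 3 and to 0.0766 without knockout replicate 2. mt-Nd5 (11742 to 13565, plus strand) overlapped between groups, at 1077, 726 and 1146 in wild type and 927, 739.9 and 749.8 in SHP -/-. Its log2 difference was -0.27 (95% interval -0.60 to 0.06, limma voom adjusted p = 0.255), and it was the tested protein-coding gene that did not pass. Without wild-type replicate 2, the lowest wild-type library for this gene, the difference was -0.47 with an adjusted p of 0.0301.

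mt-Nd6 (13552 to 14070) is the protein-coding gene on the minus strand, and its end overlaps that of mt-Nd5 by 14 bases left out of the counted length. Its levels were 2583, 1799 and 3102 CPM per kb in wild type and 1722, 1460.3 and 1546 in SHP -/-. It fell by 0.63 (SE 0.16, limma voom adjusted p = 0.0176). Without wild-type replicate 1, wild-type replicate 3 or knockout replicate 2 the adjusted p was 0.0524, 0.105 or 0.0541. The sources used here do not say whether the counting used strand, so RNA of mt-Nd6 and RNA read from the opposite strand of that stretch cannot be told apart.

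Complexes III and IV each had a tested gene. mt-Cytb (14145 to 15288, plus strand), cytochrome b of complex III, was at 1409.6, 821 and 1308 CPM per kb in wild type and 784, 660.1 and 639 in SHP -/-. All SHP -/- values lay below wild type, and the gene fell by 0.73 (SE 0.17, limma voom adjusted p = 0.0111; 0.0818 without wild-type replicate 3). mt-Co1 (5328 to 6872, plus strand), the catalytic subunit of complex IV, was at 1592, 1250.3 and 1155 in wild type and 1114, 825 and 656 in SHP -/-. It fell by 0.65 (SE 0.17, limma voom adjusted p = 0.0201). The mt-Co1 call was the least steady of the protein-coding calls, with adjusted p-values of 0.0742, 0.0520, 0.0507 and 0.0568 without wild-type replicate 1, wild-type replicate 3, knockout replicate 2 and knockout replicate 3. It also missed the threshold with robust variance moderation (adjusted p = 0.0651). No gene of ATP synthase had counts, since mt-Atp6 and mt-Atp8 were among the genes with empty cells.

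Set in order of level per length, the wild-type protein-coding genes ran from mt-Nd6 at 2494 ± 656 CPM per kb through mt-Co1 at 1332 ± 230.0, mt-Cytb at 1179.6 ± 315, mt-Nd5 at 983 ± 225, mt-Nd2 at 878 ± 119 and mt-Nd1 at 675 ± 86.2 to mt-Nd4 at 439 ± 30 (SD, n = 3 each). Neighbours from mt-Co1 to mt-Nd2 lay within an SD of each other. In SHP -/- the order was mt-Nd6 at 1576 ± 134, mt-Co1 at 865 ± 232, mt-Nd5 at 805 ± 105, mt-Cytb at 694 ± 78.2, mt-Nd1 at 421 ± 92.4, mt-Nd2 at 377 ± 48.7 and mt-Nd4 at 321 ± 42.2. mt-Nd2 stood above mt-Nd1 in wild type and below it in SHP -/-, where those means differed by less than the SD of mt-Nd1. The other exchange was between mt-Cytb and mt-Nd5.

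To compare the genes with each other and not with nuclear RNA, the same fit was scaled to the chrM total. In it 1 of the 20 tested genes was lower, 2 were higher and 17 did not pass. Over all genes tested this scaling called 0.56% lower and 55.3% higher and moved the median log2 difference to 0.66, so its values are read among mitochondrial genes alone. mt-Nd2 was lower by a log2 difference of -0.56 (95% interval -0.88 to -0.24, limma voom adjusted p = 0.00343). mt-Nd5 was higher by 0.39 (interval 0.06 to 0.73, limma voom adjusted p = 0.0418), and the proline tRNA gene mt-Tp by 1.31 (0.34 to 2.27, adjusted p = 0.0193). The adjustment ran over all genes tested, and the many genes moved higher by the scaling make its threshold lenient. Unadjusted limma voom p-values were 0.00107 for mt-Nd2, 0.0226 for mt-Nd5 and 0.00889 for mt-Tp. No adjustment over the mitochondrial genes alone was made, so the 2 higher calls are not read as results. For mt-Rnr1, mt-Co1 and mt-Nd6 the differences were 0.04, 0.02 and 0.03, with intervals reaching at most 0.39 from 0.

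The make-up of the protein-coding counts gives these genes as shares of their own class. mt-Nd2 held 8.85%, 12.0% and 11.3% of protein-coding chrM counts in wild type and 6.70%, 7.34% and 6.89% in SHP -/-. mt-Nd5 held 20.6%, 18.7% and 22.3% in wild type and 25.4%, 25.3% and 27.4% in SHP -/-. For these 2 of the 7 larger genes the groups did not overlap, each with an exact two-sided permutation p of 0.1, unadjusted. In CPM, 17.9% of all genes tested lay fully below and 17.2% fully above wild type, so the count of 2 in 7 is not read as a result. For mt-Nd1, mt-Co1, mt-Nd4, mt-Nd6 and mt-Cytb the shares interleaved. The ratio of mt-Nd5 to mt-Nd2 per length, a pair chosen after the values were seen, was 1.33, 0.893 and 1.13 in wild type and 2.17, 1.97 and 2.28 in SHP -/-. With each library left out in turn the difference in share ran from -4.65 to -3.10 points for mt-Nd2 and from 4.58 to 6.39 points for mt-Nd5.

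**Figure D4:**
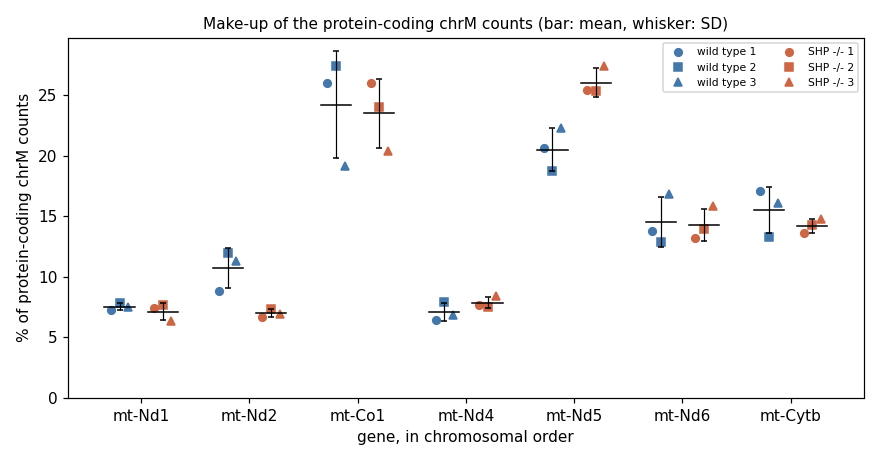
Percentage of the protein-coding chrM counts held by each of 7 genes in each library, in chromosomal order, with a bar for the mean and whiskers for the SD (n = 3; wild type blue, SHP -/- orange). The SHP -/- libraries lie at 6.70% to 7.34% for mt-Nd2, below wild type, and at 25.3% to 27.4% for mt-Nd5, above wild type, and the other genes interleave.

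The tRNA genes gave few counts, which limits what can be read from them. All 19 together had 369, 403 and 608 counts in wild type against 233, 374 and 359 in SHP -/-, and these ranges overlapped. The 10 with a mean of at least 10 counts per library were tested. mt-Te (14071 to 14139, minus strand), the glutamate tRNA gene between mt-Nd6 and mt-Cytb printed above, had 79, 44 and 109 counts in wild type against 17, 41 and 39 in SHP -/-. It fell by 1.24 on the log2 scale (SE 0.32, limma voom adjusted p = 0.0200). Without wild-type replicate 3, knockout replicate 1 or knockout replicate 3 the adjusted p was 0.1, 0.0601 or 0.0639.

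mt-Tl1 (2676 to 2750, plus strand), a leucine tRNA gene directly after mt-Rnr2, had 68, 104 and 111 counts in wild type against 38, 57 and 80 in SHP -/-. The difference of -0.65 (SE 0.25) did not pass, with a limma voom adjusted p of 0.0975, and without wild-type replicate 1 it was -0.90 with an adjusted p of 0.0203. mt-Tp (15356 to 15422, minus strand) had 11, 12 and 14 counts in wild type against 22, 17 and 19 in SHP -/-. Its SHP -/- counts were thus all above wild type, with a log2 difference of 0.59 (SE 0.42, limma voom adjusted p = 0.372) relative to the library. mt-Th, for histidine, had 7, 10 and 7 counts in wild type against 19, 6 and 15 in SHP -/- (log2 difference 0.59, limma voom adjusted p = 0.510), and the groups overlapped.

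The cluster of isoleucine, glutamine and methionine tRNA genes between mt-Nd1 and mt-Nd2 showed no call. mt-Ti had 31, 39 and 57 counts in wild type against 9, 48 and 33 in SHP -/-, with a log2 difference of -0.66 (95% interval -1.55 to 0.23). mt-Tq had 29, 48 and 65 against 24, 53 and 46, with a difference of -0.18 (-0.90 to 0.55). mt-Tm had 40, 67 and 114 against 45, 64 and 36, with a difference of -0.60 (-1.44 to 0.25). All 3 overlapped between groups, and their intervals include both no change and a fall of the size seen in the rRNA genes.

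Of the remaining tested tRNA genes, mt-Tw for tryptophan had 20, 11 and 26 counts in wild type against 4, 9 and 18 in SHP -/- (log2 difference -0.91, 95% interval -1.93 to 0.12). mt-Ta for alanine had 18, 14 and 19 counts against 16, 15 and 19 (-0.04, interval -0.83 to 0.76). mt-Tl2, the other leucine gene, had 14, 18 and 34 against 17, 17 and 18 (-0.28, interval -1.15 to 0.60). The intervals are wide at this depth. mt-Tf, mt-Tv, mt-Tn, mt-Tc, mt-Ty, mt-Ts2 and mt-Tt, serving phenylalanine, valine, asparagine, cysteine, tyrosine, serine and threonine, had at most 53 counts over the 6 libraries and at most 15 in a library. Their sums were 105 counts in wild type and 105 in SHP -/-. The 7 tRNA genes of the minus strand held 38.1% ± 5.40 of tRNA counts in wild type and 39.8% ± 0.906 in SHP -/- (SD, n = 3 each), which interleaved.

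mmu-mir-805 (16115 to 16209, minus strand), annotated in the control region of the chromosome, had 83, 62 and 98 counts in wild type against 30, 44 and 62 in SHP -/-. In CPM the groups separated, at 14.2, 12.9 and 15.6 against 6.85, 8.64 and 8.32. It fell by 0.83 (SE 0.22, limma voom adjusted p = 0.0220), with adjusted p-values of 0.0925, 0.0724 and 0.0554 without wild-type replicate 3, knockout replicate 1 and knockout replicate 3. These are counts of reads that overlap the annotated entry, and mature miRNA was not measured separately.

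A stretch in the middle of the chromosome held almost no counts. From 6870 to 8607 the 6 genes mt-Ts1, mt-Td, mt-Co2, mt-Tk, mt-Atp8 and mt-Atp6, the tRNA genes for serine, aspartate and lysine and genes of complex IV and ATP synthase, had empty cells. From 8607 to 10173 followed 5 genes that were all at 0 in every SHP -/- library. mt-Tg (9391 to 9458) had 9, 4 and 12 counts in wild type, and mt-Nd3 (9459 to 9806) had 10, 5 and 8. mt-Tr (9808 to 9875) had 3, 0 and 7, mt-Co3 (8607 to 9390), a complex IV subunit gene, had 0, 1 and 4, and mt-Nd4l (9877 to 10173) had 1, 0 and 1.

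The pooled wild-type counts of 25 for mt-Tg and 23 for mt-Nd3 were set against a floor of 3 counts over the group of SHP -/- libraries. Relative to library totals, wild type stood 8.28-fold above that floor for mt-Tg and 7.62-fold for mt-Nd3. Counting error of the wild-type counts and the spread between mice are not in these values. With each wild-type library left out in turn they ran from 6.76 to 9.86 and from 6.55 to 8.45. No such fold is given for mt-Tr and mt-Co3. Without wild-type replicate 3 they had 3 and 1 wild-type counts, at or under the floor, and 1 wild-type library of each was at 0. mt-Nd4l, with 2 counts, was under the floor in both groups. None of the 5 passed the filter on low counts. In the fit without that filter mt-Tg and mt-Nd3 were called lower, with limma voom adjusted p-values of 0.00174 and 0.00172. In that fit 3.6% of the 19594 genes were lower. With every SHP -/- count at 0, the SHP -/- values of both genes came only from the offset added to each count and the library size. They hold no measured spread within SHP -/-, so these p-values are not read as results. The level of mt-Nd3 in wild type, 3.85 ± 0.973 CPM per kb (SD, n = 3), compares with 439 ± 30 for mt-Nd4, the next protein-coding gene but one on the same strand.

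This stretch was also where mitochondrial sequence recurs in the nuclear genome's annotation. For each of the 37 mitochondrial transcripts, every window of 36 bases, the read length, was looked up in 141730 other GENCODE M21 transcripts. Windows shared with another transcript made up 100% of mt-Co2, 99.9% of mt-Co3, 99.5% of mt-Atp6, 98.9% of mt-Nd4l and 98.1% of mt-Nd3. The first 876 bases of mt-Nd4 matched the pseudogene Gm28439 without a difference, 62.6% of mt-Nd4 windows were shared, and 59.7% of those of mt-Co1. Of mt-Nd5 14.0% of windows were shared, of mt-Nd2 11.1%, of mt-Atp8 4.73%, of mt-Cytb 3.07%, of mt-Nd6 2.69% and of mt-Rnr2 2.07%. mt-Nd1, mt-Rnr1 and all tRNA genes shared none with the annotated transcripts, and the nuclear genome outside them was not searched.

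The best matching copies of mt-Co2, mt-Atp6, mt-Co3, mt-Nd3, mt-Nd4l and mt-Nd4 were Gm28661, Gm10925, Gm28437, Gm28438, Gm10222 and Gm28439, 6 pseudogenes on chromosome 1. Of the 5 protein-coding genes with at least 98% of windows shared, 2 had empty cells and the other 3 had 2 to 23 counts over the 6 libraries. Of the 8 below 98%, 7 had 17594 to 56417 counts, and the exception with empty cells was mt-Atp8, which lies between mt-Co2 and mt-Atp6. mt-Tg and mt-Tr, at 0 in SHP -/-, and the empty mt-Ts1, mt-Td and mt-Tk lie within the stretch and shared no window with an annotated transcript. No entry of the deposited table was found for Gm28661, Gm10925, Gm28437, Gm28438 or Gm28439, so how many reads fell on them is not known. Gm10222 had an entry, with 1 count over all libraries. Gm13340, a full-length copy of mt-Co1, had 57. The sources used here do not say how the authors' counting treated reads with several alignments, and the part of shared sequence in these counts was not tested.

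**Figure D5:**
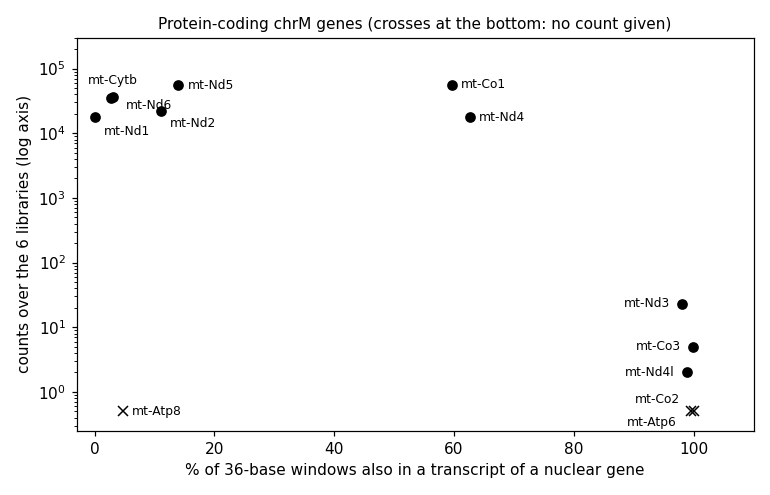
Percentage of 36-base windows of each protein-coding chrM gene that also occur in a transcript of another gene (horizontal axis) against its counts over the 6 libraries (vertical log axis), with crosses for genes with empty cells. Genes with 98.1% or more of windows shared have 23 counts or fewer, or none given, while genes with 62.6% or less have at least 17594, apart from mt-Atp8 with empty cells.

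Taking the shared windows out of the length moves the levels of mt-Co1 and mt-Nd4 upward and the order with them. All counts of each gene were kept and only the divisor changed, so this shift follows from the division. The values are levels only if reads in shared windows were not counted, which is not known. Per 1000 windows found in no other transcript, mt-Co1 reached 3379 ± 583 CPM in wild type against 2194 ± 588 in SHP -/-, above mt-Nd6 at 2674 ± 703 and 1690.1 ± 143 (SD, n = 3 each). mt-Nd4, the lowest of the 7 per kilobase, was at 1199 ± 81.8 and 878 ± 115, above mt-Nd2 at 1020.1 ± 138 and 438 ± 56.6. mt-Nd1 was then the lowest, at 699 ± 89.3 and 437 ± 95.7, next to mt-Nd2 in SHP -/-. Comparisons of a gene with itself between groups do not use the length.

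Nuclear genes that serve mitochondrial RNA were taken from fixed lists. Of 16 tested genes of mitochondrial DNA transcription and replication, 0 rose, 1 fell and 15 did not pass (1 higher and 1 lower at an unadjusted p under 0.05, and the same counts of calls with limma-trend). Of all genes tested 6.94% were lower and 7.58% higher, and 1 in 16 is near that background. Tfam had 251, 215 and 259 counts in wild type against 143, 171 and 214 in SHP -/-. In CPM it was at 42.9 ± 1.77 and 31.7 ± 2.58 (SD, n = 3 each), and it fell by 0.45 (SE 0.13, limma voom adjusted p = 0.0377). With any single library left out the adjusted p lay above the threshold, between 0.0662 and 0.151, as it did without the filter on low counts (0.0724). Polrmt had 18.3 ± 3.08 CPM in wild type against 23.5 ± 3.30 in SHP -/- (log2 difference 0.35, limma voom adjusted p = 0.219).

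Of 21 tested genes of mitochondrial RNA cleavage, stability and decay, 3 fell, 0 rose and 18 did not pass (5 lower and 1 higher at an unadjusted p under 0.05), beside 6.94% lower over all genes tested. Grsf1, a protein of mitochondrial RNA granules, averaged 176 ± 17.3 CPM in wild type against 115 ± 5.77 in SHP -/- (SD, n = 3 each). It fell by 0.62 (SE 0.11, limma voom adjusted p = 0.00275), and the call held with any single library left out. Mtpap, the mitochondrial poly(A) polymerase, fell by 0.68 (limma voom adjusted p = 0.0431) and Ptcd3, a protein of the small mitochondrial ribosomal subunit, by 0.49 (limma voom adjusted p = 0.0435). Leaving out a library ended the Mtpap call for 5 of 6 libraries, with adjusted p-values up to 0.153, and the Ptcd3 call for each of the 6, with values from 0.0615 to 0.125. Both calls were also lost with unscaled totals (0.0506 and 0.0546) and without the filter (0.0692 and 0.0808). Lrpprc, which binds and stabilises mitochondrial mRNA, was at 159.6 ± 12.4 and 138 ± 7.43 CPM (log2 difference -0.21, limma voom adjusted p = 0.185).

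Of 18 tested genes of mitochondrial rRNA modification and ribosome assembly, 0 passed by limma voom or limma-trend. At an unadjusted p under 0.05, 3 were higher and 0 lower, and the median log2 difference was 0.36. Of 29 tested genes of mitochondrial tRNA modification and charging, 2 rose, 0 fell and 27 did not pass (5 higher and 3 lower at an unadjusted p under 0.05), and 2 in 29 is near the 7.58% higher over all genes tested. Lars2, the mitochondrial leucyl-tRNA synthetase, had 8522, 9350 and 7379 counts in wild type against 23339, 28251 and 25485 in SHP -/-. Every SHP -/- library lay above every wild-type library, and the gene rose by 1.64 on the log2 scale (SE 0.19, limma voom adjusted p = 0.00017). At 1523 ± 390.2 and 4766 ± 1169.8 CPM it stood apart from the other 28 tested genes of that list, whose group means lay between 1.06 and 79.7 CPM. Sars2, the seryl-tRNA synthetase, rose by 1.07 (SE 0.25, limma voom adjusted p = 0.0140; 0.0515 and 0.0569 without wild-type replicates 1 and 3), from 5.46 ± 1.05 to 11.4 ± 0.862 CPM. Scaled to the chrM total, Tfam, Ptcd3, Grsf1 and Lrpprc had differences above 0 but below the 0.66 by which that scaling moved the median of all genes.

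Other RNA that lacks the methylguanosine cap gave small counts and differences in both directions. The 25 loci named 7SK, the small nuclear RNA that holds back transcription elongation, summed to 28.2 ± 9.34 CPM in wild type and 33.6 ± 5.70 in SHP -/- (SD, n = 3 each; two-sided exact permutation p = 0.5). The 66 loci named U6, a spliceosomal RNA, summed to 5.80 ± 1.23 and 6.27 ± 1.22 CPM (exact permutation p = 0.7). The 5 Y RNA loci, whose RNAs bind the Ro protein, summed to 30.5 ± 9.78 and 19.2 ± 4.56 CPM (exact permutation p = 0.2), and the vault RNA locus to 2.70 ± 1.34 and 3.79 ± 3.31 CPM (exact permutation p = 0.8). At single loci Rny3 fell by 0.79 (SE 0.24, limma voom adjusted p = 0.0394). Its adjusted p was 0.121 without wild-type replicate 2, 0.14 without wild-type replicate 3, 0.0891 without knockout replicate 1 and 0.133 without knockout replicate 3. Rn7sk had a log2 difference of 0.52 (adjusted p = 0.257 by limma voom). Whether the capture of capped RNA worked alike in all samples was not tested beyond these values.

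Totals were 4494353 to 7225842 counts in genes, of which 319189 to 625500 were mitochondrial. The 10 hepatocyte markers were all detected, at 85939 to 110097 summed CPM in wild type and 99901 to 105882 in SHP -/-, and 2 rose, Fgb and Ahsg. Of 8 Kupffer cell markers 2 rose, C1qa and Marco, with summed levels of 365 to 431 and 371 to 568 CPM. Of 7 sinusoidal endothelial markers 1 rose, Lyve1 (459 to 513 and 309 to 478 CPM). At an unadjusted limma voom p under 0.05, 1 of these was higher and 4 were lower, and their median log2 difference was -0.30. Of 7 stellate markers 1 fell, Rgs5 (375 to 405 and 190.2 to 392 CPM). Col1a1 went the other way without passing (log2 difference 1.07, limma voom adjusted p = 0.0665), and with limma-trend 1 stellate marker was higher and 1 lower. None of 3 tested cholangiocyte markers passed (47.0 to 50.7 and 31.3 to 62.5 CPM), nor of 5 erythroid markers (195 to 221 and 194 to 333 CPM). Of the muscle, adipose and gut markers Cela1 was tested and rose (9.21 to 17.4 and 20.4 to 28.5 CPM for the list). Over all genes tested 7.58% were higher and 6.94% lower, and counts of calls in lists this short are not read as results. Of the 7 marker calls by limma voom 0 held without wild-type replicate 3, with adjusted p-values from 0.0549 to 0.161. Those of Fgb and Ahsg were also lost with limma-trend (0.106 and 0.144). The part of cell composition in the mitochondrial values was not tested.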

How the data were processed

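Liver RNA of 6 mice, 3 wild type and 3 SHP -/-, was measured by sequencing after selection for capped RNA. The submitters' processing notes name Novoalign 2.05.33 and the mm9 build. No source used here names the counter, its handling of strand and of reads with several alignments, or the annotation release. The authors deposited 1 table with raw whole-number counts per gene and library. Per the file headers it also holds RPKM and log2 ratios of pooled groups, and scores for a negative binomial p and its adjusted value, none of which was used. Of 33495 genes, 19594 had counts. Because 4840 lines end early, the counts were handled as a general unit, and count models were replaced by limma voom.

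Members were the chrM rows with filled cells. The members and gene lists were chosen with earlier results of these data known. Start coordinates were raised by 1 to count from 1. Levels per kilobase used the gene length without the 1 to 14 bases by which 13 members overlap a neighbour. Current names were found for 18248 genes in a later annotation. Totals of 4494353 to 7225842 counts were scaled by TMM factors (trimmed mean of M values) of 0.966 to 1.03. Genes were kept with at least 1.83 CPM in 3 libraries and 15 counts in all. The voom function of limma 3.58.1 (R 4.3.3) was run on log2 CPM with an offset of 0.5 counts, genotype being the only term, and p-values were adjusted over 11794 genes. The script was tested on simulated data. Shares were tested by two-sided exact permutation (scipy 1.17.1). Wilson intervals cover counting error only, and floors cover only that of the SHP -/- counts. Of counts from 1 to 19, 61.8% were even over all genes and 44.9% over the mitochondrial genes (78 counts), and whether mates were counted separately was not tested. The search for shared 36-base windows and levels per unshared window were added after the values were seen. Libraries of a group differed by more than counting noise (chi-square per degree of freedom 5.13 to 9.13), so none was a copy.

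Named were all members, with values per library for rRNA, protein-coding and the more abundant tRNA genes, and from each nuclear list Tfam, Polrmt and Lrpprc or called genes with the smallest p. Ptcd3, Fgb, Ahsg and other called markers were named beyond 2 per list, after their values were seen. Alternatives were limma-trend, robust moderation, other scalings, no filter, a replicate block and each library left out. The tables hold no sequence for mmu-mir-805, which is named only.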

Additional observations from a re-analysis of the deposited data

How the results depend on the processing

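Relative to the chrM total, 1 mitochondrial gene was lower and 2 were higher, against 10 and 0 with whole-library scaling. This follows from the scaling, which sets the mitochondrial sum equal in all libraries. The 2 higher calls also rest on an adjustment over all genes tested, 55.3% of which this scaling called higher. Under it the log2 differences changed sign for mt-Rnr1 (0.04), mt-Tl1 (0.00), mt-Tq (0.50), mt-Tm (0.15), mt-Ta (0.66), mt-Co1 (0.02), mt-Nd4 (0.20), mt-Tl2 (0.44), mt-Nd5 (0.39), mt-Nd6 (0.03), Tfam (0.23), Ptcd3 (0.18), Grsf1 (0.04) and Lrpprc (0.45). With limma-trend, mt-Ta was at 0.01. Limma-trend, median-of-ratios scaling, unscaled totals and totals without chrM each gave 10 lower calls, robust moderation 9, and no filter on low counts 12 of 32 genes. The calls added without the filter were mt-Tg and mt-Nd3, at 0 in every SHP -/- library, and they are not read as results. With a replicate block, 11 were lower; the added gene was mt-Tl1 (limma voom adjusted p = 0.0358), and the block ended the calls of Mtpap (0.0546), Ptcd3 (0.0585), Nr0b2 (0.0553), Fgb (0.0505) and Ahsg (0.0527). The replicate numbers share no stated litter or day, and correlations of deviations between same-numbered libraries were -0.02 throughout, so the numbers were not read as pairs.

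Leaving out each library gave 2 to 11 lower calls, 2 being without wild-type replicate 3, where the cause was not tested. The log2 difference then ran from -0.53 to 0.04 for mt-Tq, from -0.15 to 0.12 for mt-Ta and from -0.61 to 0.04 for mt-Tl2. The chrM share differed by -4.02 to -3.30 points, and the rRNA share of chrM counts by -0.682 to 0.691. The protein-coding share differed by -0.699 to 0.663, against 0.197 with all libraries, by -0.0466 per length and by -0.0676 without the rRNA genes in the denominator. The tRNA share differed by 0.00102 to 0.0193. Few tRNA counts limit what can be seen for that class.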
